A study of Homo sapiens with 9 samples.

Results

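Nonsense-mediated decay (NMD) is the surveillance pathway that degrades mRNAs on which translation ends too early. The RNA helicase UPF1 is recruited to such an mRNA, UPF2 and the UPF3 proteins bridge it to exon junction complexes left by splicing, the kinase SMG1 with its partners SMG8 and SMG9 phosphorylates it, and SMG5 and SMG6 then bring about decay. Several mRNAs that encode these factors are themselves substrates of the pathway. The genes described here are 9 of these factors, chosen by name: UPF1, UPF2, UPF3A, UPF3B, SMG1, SMG5, SMG6, SMG8 and SMG9. They were 9 of 56349 genes matched in the transcript quantification of the series and were represented by 90 transcripts, of which 43 were annotated as protein coding, 21 as retained intron and 3 as NMD substrates. All 9 passed the filter on low counts.

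RNA was sequenced from nuclear and cytoplasmic fractions of HEK293 cells, a human embryonic kidney line (the study's methods name its T derivative). The cells had received either a control siRNA or siRNAs that target WTAP and KIAA1429 together. WTAP and KIAA1429 (Virilizer in the labels, VIRMA in the annotation used here) are non-catalytic subunits of the complex that writes N6-methyladenosine (m6A) into mRNA. The libraries comprised 3 control nuclear, 3 RNAi nuclear, 2 RNAi cytoplasmic (replicates 1 and 2) and 1 control cytoplasmic (replicate 2), and further cytoplasmic libraries were not analysed here. The control arm carried a control siRNA, so every group had been transfected, and nothing in the labels says that replicates were separate cultures, so p-values measure the spread between these libraries, which may be technical. Every comparison that involves the cytoplasm of control cells, including the change of the nuclear/cytoplasmic ratio, rests on that single library, whose spread was taken from the other groups.

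Estimated counts summed to between 11627403 and 19036141 per library, and 3 counts corresponded to 0.19 to 0.303 CPM, the counts of a gene scaled to a common total of those matched to genes. The sums over marker genes below are on this scale, without further adjustment. The levels of single genes below are in CPM with library sizes adjusted by TMM normalization. These are shares of a library, so less of an RNA per cell, more of other RNAs and a different makeup of the cells cannot be told apart. The nuclear RNAs MALAT1, NEAT1, KCNQ1OT1, MEG3 and TUG1 summed to 402 to 470.0 CPM in control nuclei and 523 to 585 CPM in RNAi nuclei. They summed to 93.9 CPM in the control cytoplasmic library and to 49.2 to 59.9 CPM in the RNAi cytoplasmic libraries, so both fractions of the arms differed in their content of these RNAs, without overlap. Mitochondrially encoded MT-CO1, MT-CO2, MT-CO3, MT-CYB, MT-ND1 and MT-ND4 mark RNA outside the nucleus. They summed to 128000 to 210500 CPM in control nuclei and 128900 to 196800 CPM in RNAi nuclei. Their sums were 89300 CPM in control cytoplasm and 93060 to 134500 CPM in RNAi cytoplasm. Between the fractions MT-CO1, MT-CO3 and MT-CYB were called higher in nuclei and the others were not called. The nuclear libraries thus also held RNA from outside the nucleus. The 6 markers of HEK293 cells were detected in every library, whereas CD3E and HBB were at 0 throughout and the summed level of the 4 markers of other cells did not exceed 0.303 CPM. Replicates differed by more than counting error in every pair, and control nuclear replicate 2 stood farthest from its fellows. Of the siRNA targets, WTAP was at 23.0, 24.1 and 27.6 CPM in control nuclei and 12.2, 14.3 and 15.5 CPM in RNAi nuclei, and at 37.5 CPM in control cytoplasm and 10.8 and 11.9 CPM in RNAi cytoplasm. VIRMA was at 13.2, 13.6 and 19.8 CPM in control nuclei, 5.56, 6.97 and 9.18 CPM in RNAi nuclei, 17.4 CPM in control cytoplasm and 4.05 and 4.21 CPM in RNAi cytoplasm. For both targets the control and RNAi libraries of a fraction did not overlap, and both fell in nuclei (edgeR log2 fold change of -0.83 with adjusted p = 0.0169 for WTAP, and -1.08 with adjusted p = 0.0314 for VIRMA) and in the cytoplasm (-1.72 and -2.07). The nuclear call of WTAP was lost in 1 of 16 alternatives and that of VIRMA in 5 of 16 (edgeR or other test, adjusted p up to 0.191). For VIRMA these included leaving out control nuclear library 3 or either of RNAi nuclear libraries 2 and 3 (adjusted p = 0.123, 0.122 and 0.141).

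The 9 factors were expressed over a wide range. In TPM, salmon's measure of abundance corrected for transcript length and scaled to a common total, SMG5 had the highest median over the 9 libraries, 54.5 TPM (range 37.7 to 79.1), followed by SMG9 at 38.3 TPM (20.5 to 54.7) and UPF1 at 31.3 TPM (24.5 to 41.0). SMG1 had a median of 15.8 TPM (3.899 to 22.3), SMG6 of 13.5 TPM (9.39 to 20.4) and SMG8 of 9.35 TPM (6.65 to 12.0). The genes for the bridging proteins were the lowest, with medians of 4.97 TPM for UPF3A (2.23 to 7.59), 2.64 TPM for UPF3B (0.741 to 3.34) and 2.06 TPM for UPF2 (0.295 to 4.83). Each gene's range overlapped that of its neighbour in this order, except that UPF1 lay above SMG1 without overlap. Counting depth differed accordingly: SMG5 had 2348 to 3523 estimated counts per library, whereas UPF2 had 23 to 155, UPF3B 25 to 119 and UPF3A 35 to 105.

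To find out whether depletion of WTAP and KIAA1429 changed where these mRNAs lay, the nuclear/cytoplasmic ratio after RNAi was compared with that in control cells (log2 fold change beyond 0.5 and adjusted p under 0.1 in edgeR, the thresholds of the study). The ratio rose for UPF2, UPF3B and SMG1 and fell for UPF1 and SMG9, whereas UPF3A, SMG5, SMG6 and SMG8 did not pass the test. These were 3 of 9 members higher and 2 of 9 lower, where 18.2% of all 16181 genes tested were called, 10.4% higher and 7.87% lower. The median change over the members was 0.04 on the log2 scale, beside -0.05 over all genes. The comparisons of ratios, of nuclei and of cytoplasm use the same libraries, so they are described side by side for each gene.

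**Figure D1:**
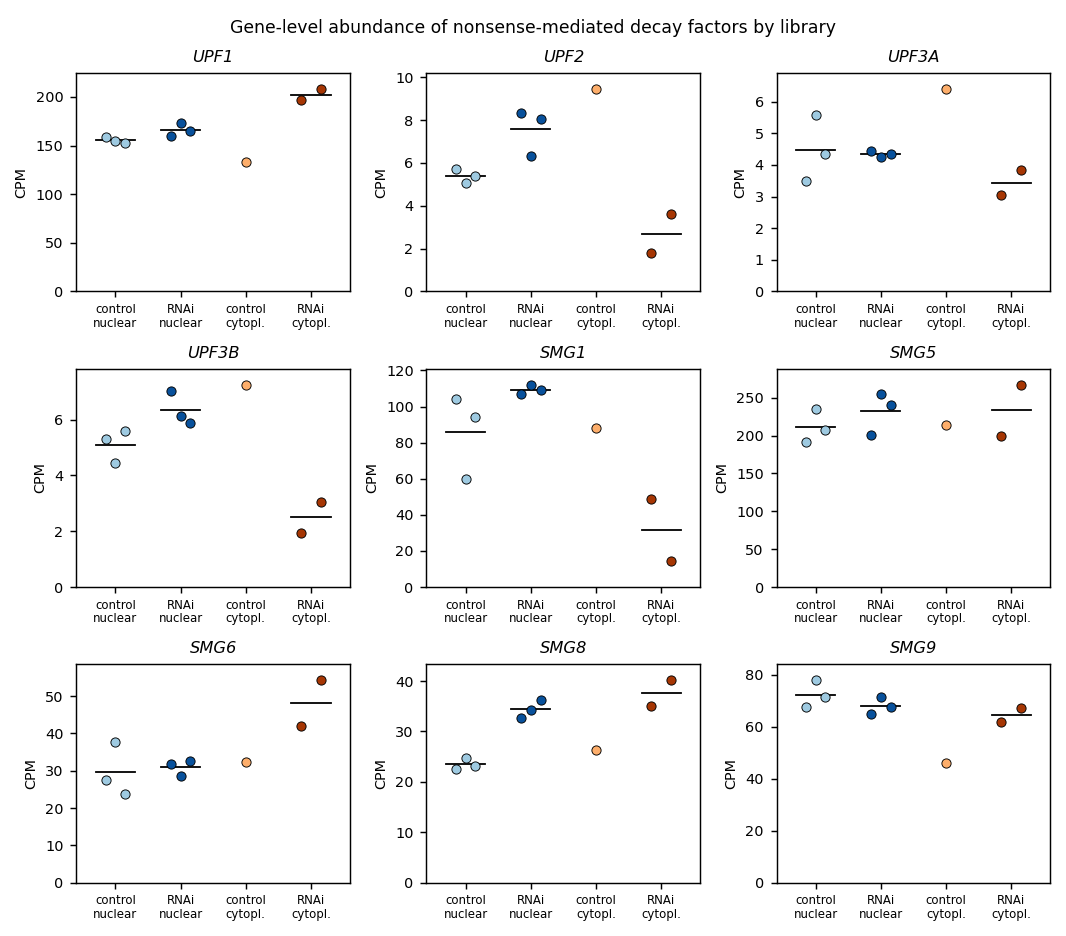
Gene-level abundance of the 9 factors in each library, in CPM from an axis starting at 0, with points for libraries and lines for group means (the control cytoplasmic group is 1 library and has no line). In the RNAi cytoplasmic libraries UPF2, UPF3A, UPF3B and SMG1 lie below the control cytoplasmic library, and UPF1, SMG6, SMG8 and SMG9 lie above it.

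UPF2 and UPF3B, which together link UPF1 to the exon junction complex, had the largest ratio and cytoplasmic changes of the 9 members with all libraries included. UPF2 (chromosome 10, 11962021 to 12085169, minus strand, GRCh37) was at 9.43 CPM in control cytoplasm and at 1.79 and 3.61 CPM in RNAi cytoplasm, and at 5.04, 5.40 and 5.70 CPM in control nuclei and 6.30, 8.06 and 8.35 CPM in RNAi nuclei. The RNAi libraries lay below the control library in the cytoplasm and above all control libraries in nuclei. In the cytoplasm UPF2 fell by 1.85 on the log2 scale (SE 0.33, edgeR adjusted p = 0.00491), in nuclei its log2 fold change was 0.50 (SE 0.22, adjusted p = 0.226), and its nuclear/cytoplasmic ratio rose 5.07-fold (log2 2.34, SE 0.40, adjusted p = 0.00733). The size of this change was less certain than its call: it was 3.52 on the log2 scale with an offset for transcript length, 1.88 without RNAi cytoplasmic replicate 1 and 2.93 without replicate 2.

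UPF3B (chromosome X, 118967985 to 118986961, minus strand) was at 7.24 CPM in control cytoplasm and at 1.95 and 3.06 CPM in RNAi cytoplasm. Its nuclear libraries held 4.43, 5.29 and 5.57 CPM in control cells and 5.88, 6.12 and 7.02 CPM after RNAi, without overlap. UPF3B fell in the cytoplasm (log2 -1.56, SE 0.29, edgeR adjusted p = 0.00588), had a nuclear log2 fold change of 0.32 (SE 0.19, adjusted p = 0.373), and rose in its ratio 3.67-fold (log2 1.88, SE 0.35, adjusted p = 0.0102). The ratio calls of UPF2 and UPF3B held in all 16 alternatives tried.

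UPF3A (chromosome 13, 115047076 to 115071292, plus strand), the paralogue of UPF3B, was at 6.39 CPM in control cytoplasm and at 3.04 and 3.83 CPM in RNAi cytoplasm, and at 3.50, 4.34 and 5.59 CPM in control nuclei and 4.26, 4.36 and 4.45 CPM in RNAi nuclei. The nuclear libraries of the arms overlapped. UPF3A fell in the cytoplasm (log2 -0.91, SE 0.30, edgeR adjusted p = 0.057). That call was lost in 6 of 16 alternatives, among them the omission of RNAi cytoplasmic replicate 1, with values from -1.165 to -0.696. The ratio of UPF3A did not pass the test (log2 0.87, SE 0.37, adjusted p = 0.151) except without control nuclear replicate 2 (log2 1.07, adjusted p = 0.0526).

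UPF1 (chromosome 19, 18942768 to 18979039, plus strand), the helicase on which the pathway centres, moved the other way. Its level was 133 CPM in control cytoplasm and 196.5 and 208 CPM in RNAi cytoplasm, and it was at 152, 155 and 159 CPM in control nuclei and at 160.2, 165 and 173 CPM in RNAi nuclei. Both RNAi cytoplasmic libraries exceeded every other library. UPF1 rose 1.51-fold in the cytoplasm (log2 0.60, SE 0.12, edgeR adjusted p = 0.00791). That call was lost with library size alone (log2 0.34) and with limma on TPM (0.30, adjusted p = 0.544). The UPF1 ratio fell by 0.51 on the log2 scale (SE 0.14, adjusted p = 0.0453).

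SMG9 (chromosome 19, 44232135 to 44259114, minus strand), a partner of the SMG1 kinase, was at 45.9 CPM in control cytoplasm, the lowest of all 9 libraries, and at 61.6 and 67.0 CPM in RNAi cytoplasm. Its nuclear levels were 67.6, 71.2 and 77.8 CPM in control cells and 64.7, 67.6 and 71.3 CPM after RNAi. The ratio of SMG9 fell by 0.58 on the log2 scale (SE 0.17, edgeR adjusted p = 0.0522). Its cytoplasmic change of 0.49 (SE 0.14, edgeR adjusted p = 0.0364) was under the fold threshold but was called in 5 of 16 alternatives. The ratio calls of UPF1 and SMG9 were each lost in 9 of 16 alternatives, including the omission of control nuclear replicate 3 (adjusted p = 0.128 and 0.134) of RNAi cytoplasmic replicate 2 (0.144 and 0.16) or of RNAi nuclear replicate 3 (0.11 and 0.114). They were also lost without RNAi nuclear replicate 1 (log2 -0.49 for UPF1, and adjusted p = 0.102 for SMG9), and that of UPF1 without control nuclear replicate 1 (log2 -0.44). With library size alone in place of TMM normalization the median over all genes moved from -0.05 to 0.23, 93.2% rather than 56.9% of called genes were higher (2236 higher and 164 lower), and the ratio changes of UPF1 and SMG9 were -0.22 and -0.29, with no call.

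SMG1 (chromosome 16, 18816182 to 18937730, minus strand), the kinase that phosphorylates UPF1, varied widely between replicates. It was at 88.3 CPM in control cytoplasm but at 48.8 and 14.2 CPM in RNAi cytoplasmic replicates 1 and 2, at 59.8, 94.4 and 104 CPM in control nuclei and at 107, 109 and 112 CPM in RNAi nuclei. Neither fraction's RNAi libraries overlapped its control libraries, and the RNAi cytoplasmic libraries differed from each other by a larger factor than replicate 1 differed from the control library. SMG1 fell in the cytoplasm (log2 -1.46, SE 0.48, edgeR adjusted p = 0.057) and rose in its ratio (log2 1.81, SE 0.58, adjusted p = 0.0723). The cytoplasmic call was lost in 3 of 16 alternatives (adjusted p up to 0.129), and the change was -2.63 without RNAi cytoplasmic replicate 1, -0.90 without replicate 2 and -0.73 with the length offset. The change of its ratio was 2.98 without RNAi cytoplasmic replicate 1, 1.24 without replicate 2 and 1.01 with the length offset, and the call was lost in 7 of 16 alternatives, among them the omission of control nuclear replicate 3 (adjusted p = 0.114) or of any RNAi nuclear library (0.122 to 0.126). The near-identical partial copies of SMG1 on chromosome 16 share reads with it: 9 copy genes named SMG1P carried between 9.9% and 29.6% as many estimated counts as SMG1, the latter in control nuclear replicate 2, and 26.2% in RNAi cytoplasmic replicate 2, so the division of reads between them is uncertain.

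SMG8 (chromosome 17, 57286761 to 57292600, plus strand), the other partner of SMG1, was higher after RNAi in both fractions. Its levels were 22.6, 23.2 and 24.7 CPM in control nuclei and 32.7, 34.3 and 36.3 CPM in RNAi nuclei, and 26.4 CPM in control cytoplasm and 35.0 and 40.1 CPM in RNAi cytoplasm. No RNAi library overlapped the control libraries. SMG8 rose 1.46-fold in nuclei (log2 0.55, SE 0.10, edgeR adjusted p = 0.0295) and 1.42-fold in the cytoplasm (log2 0.51, SE 0.15, adjusted p = 0.0425), and the change of its ratio was 0.04 (SE 0.18). It was the only 1 of 9 members called in nuclei, where 4.89% of all genes were called, 2.47% higher and 2.42% lower. That call was lost in 5 of 16 alternatives. These included the omission of control nuclear replicate 3, RNAi nuclear replicate 2 or RNAi nuclear replicate 3 (edgeR adjusted p = 0.13, 0.113 and 0.14). The cytoplasmic call was lost in 7 of 16 alternatives. Among them were the omission of control nuclear replicate 1 or 3 (log2 0.45 in each case) or of RNAi cytoplasmic replicate 2 (log2 0.36), and library size alone (log2 0.25). In the cytoplasm 6 of 9 members were called, 2 higher and 4 lower, where 24.6% of all genes were called, 10.4% higher and 14.2% lower. That split depended on the scaling: with library size alone 0 members were called higher and 4 lower, and with limma on TPM 0 higher and 2 lower.

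SMG5 and SMG6, which act on phosphorylated UPF1, the former as an adaptor and the latter as an endonuclease, passed none of these tests. SMG5 (chromosome 1, 156219015 to 156252616, minus strand) was at 191, 208 and 235 CPM in control nuclei, 201, 241 and 255 CPM in RNAi nuclei, 214 CPM in control cytoplasm and 199.7 and 267 CPM in RNAi cytoplasm, with overlap in both fractions. The change of its ratio was 0.02 on the log2 scale (SE 0.24, edgeR adjusted p = 0.977). SMG6 (chromosome 17, 1963133 to 2207079, minus strand) was at 23.8, 27.4 and 37.7 CPM in control nuclei, 28.5, 31.8 and 32.5 CPM in RNAi nuclei, 32.4 CPM in control cytoplasm and 42.1 and 54.2 CPM in RNAi cytoplasm. Its nuclear libraries overlapped and its RNAi cytoplasmic libraries lay above the control library. The cytoplasmic change of SMG6, 0.57 on the log2 scale (SE 0.25), was not called here but was called in 4 of 16 alternatives. Its ratio changed by -0.51 (SE 0.30, edgeR adjusted p = 0.305).

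**Figure D2:**
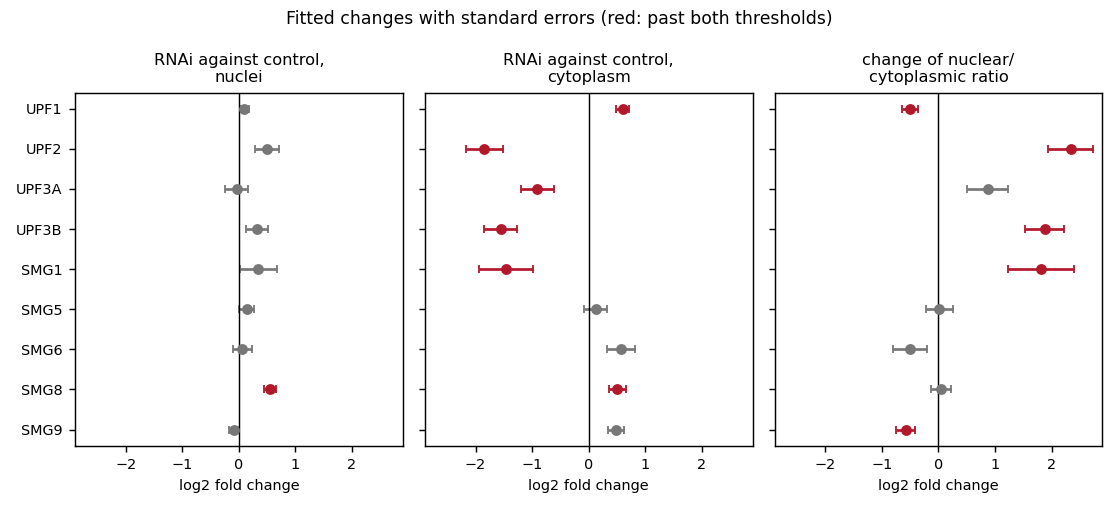
Log2 fold changes fitted by edgeR, with bars of 1 standard error, for RNAi against control in nuclei, in the cytoplasm and in the nuclear/cytoplasmic ratio. UPF2, UPF3B and SMG1 lie left of 0 in the cytoplasm and right of 0 in the ratio, and only SMG8 is past both thresholds in nuclei.

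Of the nuclear RNAs used to check the fractions, KCNQ1OT1, MALAT1 and NEAT1 rose in their ratio by 1.58, 1.33 and 0.85 on the log2 scale. The ratio change of TUG1, 0.44, was not called (edgeR adjusted p = 0.235), and MEG3 was too rare to be tested. In nuclei KCNQ1OT1 and NEAT1 rose by 0.79 and 0.52 (edgeR adjusted p = 0.0233 and 0.0297) and MALAT1 had a change of 0.13. In the cytoplasm KCNQ1OT1 and MALAT1 fell by 0.79 and 1.20 and the change of NEAT1, -0.32, was not called (adjusted p = 0.223). What part this has in the members' ratios was not tested.

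In the comparison of the fractions themselves, averaged over the arms, SMG1 alone of the 9 members was called, higher in nuclei by 0.87 on the log2 scale (SE 0.31, edgeR adjusted p = 0.03), where 56.5% of all genes were called. This value came from the RNAi arm, in which SMG1 was higher in nuclei by 1.77 (SE 0.40), whereas in control cells the difference was -0.04 (SE 0.46). UPF2 was lower in nuclei than in the cytoplasm of control cells (-0.81, SE 0.29, adjusted p = 0.0386) and higher in nuclei after RNAi (1.53, SE 0.28, adjusted p = 0.000888). UPF3B had differences of -0.51 (SE 0.26, adjusted p = 0.124) and 1.37 (SE 0.24, adjusted p = 0.000793) in the same order. SMG9 was higher in nuclei of control cells (0.65, SE 0.14, adjusted p = 0.00304) with a difference of 0.08 (SE 0.10) after RNAi, and SMG6 was lower in nuclei after RNAi (-0.63, SE 0.18, adjusted p = 0.0127) with a difference of -0.13 (SE 0.23) in control cells. In the arms taken singly, 2 of 9 members were called in control cells, 1 in each direction, where 50.8% of all genes were (28.0% higher and 22.7% lower in nuclei). After RNAi 4 of 9 were called, 3 higher and 1 lower, where 57.8% of all genes were (32.9% higher and 24.9% lower). Without RNAi cytoplasmic replicate 2 the average over the arms called UPF2 (0.64) and UPF3B (0.60) as well.

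Isoforms of the members were also compared between the fractions. Each transcript was set against the other transcripts of its gene with limma on log2(TPM + 1), a scale that understates changes of rare transcripts, and 14 of 25 member transcripts tested were called between nuclei and cytoplasm, 7 higher and 7 lower in nuclei, where 35.6% of all 34440 transcripts were called, 17.7% higher and 17.9% lower. Among member transcripts annotated as retained intron, 6 of 11 were higher and 2 of 11 lower in nuclei relative to their gene (40.2% and 6.5% of all 7123 such transcripts), and among protein-coding ones 0 of 11 were higher and 5 of 11 lower (8.6% and 23.1% of all 19065). A transcript could pass the filter through the nuclear libraries alone, which favours a value above 0. In all, 6 of the 11 member retained-intron transcripts (60.9% of all such transcripts tested) and 2 of the 11 protein-coding ones (11.3%) were under 1 TPM in every cytoplasmic library, among them 4 of the 6 retained-intron transcripts called higher. These counts are therefore given as a description of the transcripts that passed. No member transcript of the NMD class was abundant enough to be tested. A value below 0 here says that a transcript was a smaller part of its gene's output in nuclei, and not that its own level was lower there.

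Of the members, SMG5 is described first. Its retained-intron transcripts SMG5-203 and SMG5-204 cover the intron between exons 20 and 21 of the main transcript SMG5-201 (GRCh37 chromosome 1, 156220788 to 156221193, minus strand, 406 nucleotides). SMG5-203 runs through the donor into 324 of these nucleotides, and SMG5-204 holds 384 of them and runs through the acceptor. SMG5-203 also holds 51 nucleotides of the intron between exons 18 and 19 and runs through its acceptor, which is not shown. The read-through sites of the intron between exons 20 and 21 are shown because reads across them do not come from the spliced SMG5-201. Any other RNA that keeps the intron between exons 20 and 21, such as pre-mRNA, would also give such reads, and these sources were not told apart. The same holds for the retained-intron transcripts below. Each site is given with the last or first 10 exon bases in capitals and 20 intron bases in lower case. The bases are from the GRCh37 sequence on the minus strand, at chr1:156221174-156221203 and chr1:156220778-156220807.
SMG5 intron 20 donor: CAGATGCCTGgtaacattttagccctcacc
SMG5 intron 20 acceptor: cctctgccccccatccccagGACTCTCTAT

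SMG5-204 was at 7.38, 8.10 and 11.9 TPM in control nuclei and at 7.10, 8.82 and 10.5 TPM in RNAi nuclei, but at 0.321 TPM in control cytoplasm and at 0.0922 and 0.238 TPM in RNAi cytoplasm. SMG5-203 was at 5.52 to 9.22 TPM over the nuclear libraries and was listed at 0 in all 3 cytoplasmic libraries. The protein-coding transcript SMG5-201 was at 36.6 to 58.8 TPM in nuclei and at 37.6 to 45.7 TPM in the cytoplasm, with overlap. Relative to the other transcripts of SMG5, both retained-intron transcripts were higher in nuclei (1.42 for SMG5-204 with limma adjusted p = 0.000426 and 1.44 for SMG5-203 with adjusted p = 0.000372 on the log2 scale) and SMG5-201 was lower (-2.86, adjusted p = 9.64e-08). These calls held in all 13 alternatives tried, including the RNAi arm alone. SMG5-203 and SMG5-204 reached 1 TPM in nuclear libraries only, as did SMG1-214, SMG1-212 and SMG9-207 below. Their calls were thus favoured by the filter and are given as a description. The value of SMG5-201 follows from those of the other SMG5 transcripts tested and is not a further result.

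SMG1-214, which has 2 exons, keeps the whole intron between exons 11 and 12 of SMG1-201 (chromosome 16, 18888555 to 18890816, minus strand, 2262 nucleotides). It also runs through the donor between exons 13 and 14 into 177 intron nucleotides, a site that is not shown. The sites of the intron kept whole are shown in the same manner, at chr16:18890797-18890826 and chr16:18888545-18888574.
SMG1 intron 11 donor: ACTCACGCTGgtatgtgaattattcttttc
SMG1 intron 11 acceptor: taaaaattttattcttttagATTGTTGAAC

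SMG1-214 was at 2.34, 3.33 and 3.98 TPM in control nuclei and 3.53, 4.62 and 4.62 TPM in RNAi nuclei, against 0.305 TPM in control cytoplasm and 0.112 and 0.163 TPM in RNAi cytoplasm, and was higher in nuclei relative to its gene (1.37, limma adjusted p = 0.00144). The full-length transcript SMG1-201 was at 4.11 TPM in control cytoplasm and at 1.65 and 0.0872 TPM in RNAi cytoplasm, while it was at 2.29 to 4.42 TPM in control nuclei and at 4.56 to 5.29 TPM in RNAi nuclei. In RNAi cytoplasmic replicate 2, SMG1-201 thus held 17.9 estimated counts. The shorter protein-coding transcript SMG1-204 was at 2.65 to 4.05 TPM in nuclei and 2.85 to 3.98 TPM in the cytoplasm and was lower relative to its gene (-0.99, adjusted p = 0.0199). SMG1-207, which keeps an intron of 84 nucleotides, was also lower (-1.0009, adjusted p = 0.0184), with overlapping levels of 1.02 to 3.31 TPM in nuclei and 0.573 to 3.52 TPM in the cytoplasm, a call lost in the RNAi arm alone (-0.41). SMG1-212 was higher in nuclei (0.89, adjusted p = 0.0366), with 6 to 33 estimated counts in nuclear libraries and no more than 1 in cytoplasmic ones. Its call was lost in 4 of 12 alternatives, with values down to 0.39. Among them were the omission of RNAi cytoplasmic replicate 1 and of RNAi nuclear replicate 1 or 2 (adjusted p = 0.104 and 0.116 for the nuclear ones).

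SMG9-207 and UPF1-204 begin inside introns and run through their acceptors. SMG9-207 holds 330 nucleotides before exon 10 of SMG9-201, and UPF1-204 holds 938 nucleotides before exon 16 of UPF1-201. The acceptors they cross are at chr19:44238638-44238667 (minus strand) and chr19:18971110-18971139 (plus strand).
SMG9 intron 9 acceptor: cactcaccccaaaccccaagGTTCCTGCAG
UPF1 intron 15 acceptor: ttctttccctcccctcacagCGGATCGTGT

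SMG9-207 was at 1.64, 7.72 and 10.1 TPM in control nuclei and at 5.93, 6.39 and 7.66 TPM in RNAi nuclei, was listed at 0 in every cytoplasmic library, and was higher in nuclei relative to its gene (1.81, limma adjusted p = 0.000925). UPF1-204 was at 1.59, 1.88 and 2.58 TPM in control nuclei and at 2.93, 3.87 and 4.23 TPM in RNAi nuclei. In the cytoplasm it was at 0 TPM in the control library and at 0.0866 and 1.68 TPM after RNAi, the last of which overlapped the control nuclear range, and the transcript was higher in nuclei (1.35, adjusted p = 0.00232). The main protein-coding transcripts were lower relative to their genes: UPF1-201 (-1.10, adjusted p = 0.0102) was at 14.3 to 22.9 TPM in nuclei and 17.6 to 21.2 TPM in the cytoplasm, and SMG9-201 (-1.07, adjusted p = 0.0502) was at 22.2 to 33.2 TPM in nuclei and 19.2 to 21.8 TPM in the cytoplasm. The call of UPF1-201 was lost in 2 of 13 alternatives, among them the RNAi arm alone (-0.76). That of SMG9-201 was lost in 1 of 13, without RNAi cytoplasmic replicate 2. SMG9-208 was called lower (-1.34, adjusted p = 0.0133), but in the cytoplasm it had 3.86 TPM in RNAi cytoplasmic replicate 1 and was listed at 0 in the other cytoplasmic libraries, and without replicate 1 it was too rare to be tested.

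**Figure D3:**
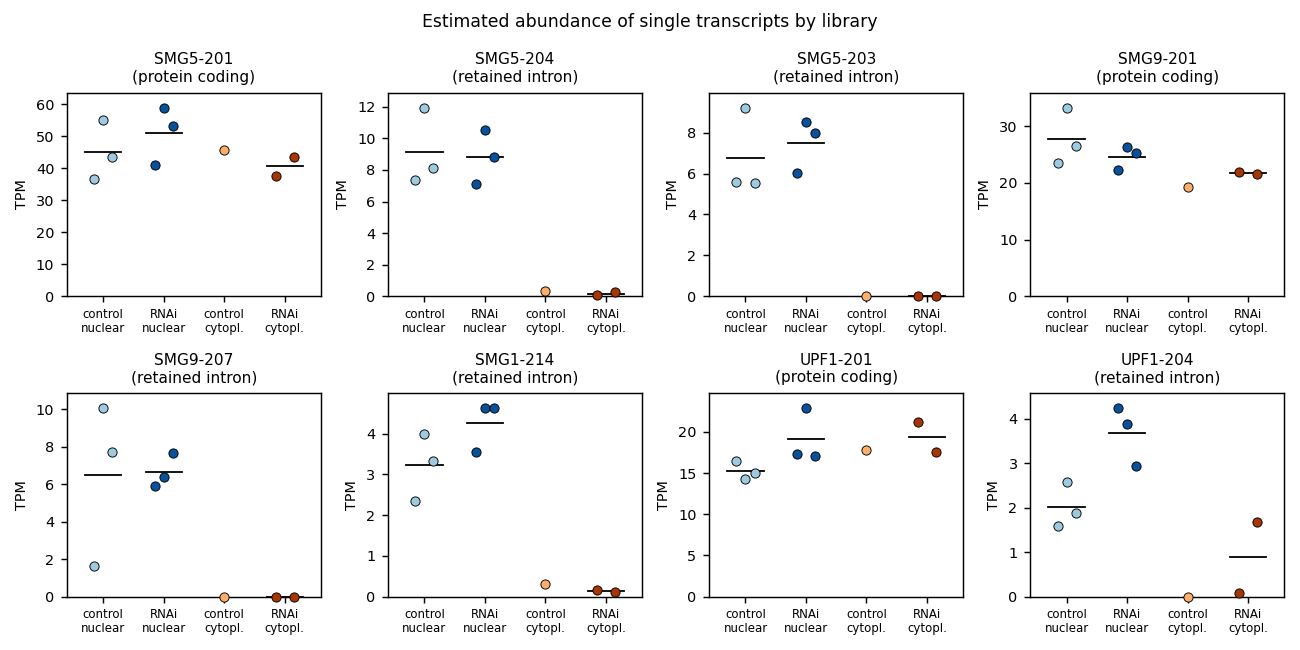
Estimated abundance in TPM of 8 member transcripts in each library, from axes starting at 0, with lines for group means. SMG5-203, SMG5-204, SMG9-207 and SMG1-214 are near or at 0 in all 3 cytoplasmic libraries, whereas SMG5-201 and UPF1-201 have like levels in both fractions.

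The transcript of SMG6 with the highest mean TPM was SMG6-207, of 2426 nucleotides and with no defined coding sequence, at 5.09 to 11.8 TPM in nuclei and 6.22 to 8.07 TPM in the cytoplasm. The full-length protein-coding transcript SMG6-201 was at 0.0405 to 1.87 TPM in nuclei and at 2.38 to 3.08 TPM in the cytoplasm, without overlap. It was lower in nuclei relative to its gene (-1.37, limma adjusted p = 0.0269). That call was lost in 2 of 12 alternatives, among them the RNAi arm alone (-0.97). SMG6-215, a retained-intron transcript, was at 1.15 to 3.78 TPM in nuclei and 0.248 to 1.16 TPM in the cytoplasm (1.12, adjusted p = 0.0694), and this call was lost in 8 of 12 alternatives, including the omission of control nuclear replicate 3 (adjusted p = 0.132), RNAi cytoplasmic replicate 1 or 2 (0.106 and 0.197) or RNAi nuclear replicate 2 (0.155). SMG8 was assigned to protein-coding transcripts alone, with SMG8-201 at 6.26 to 11.5 TPM over all libraries. For UPF2, UPF3A and UPF3B few counts were divided among the isoforms: UPF2-202 ranged from 0.0817 to 1.39 TPM, UPF3B-202 from 0.000404 to 3.16 TPM, and UPF2-204, of 640 nucleotides, was at 3.38 TPM in control cytoplasm and at 0 and 0.357 TPM in RNAi cytoplasm.

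As a share of each gene's TPM, retained-intron transcripts made up 25.96% ± 2.0 (SD, n = 3) of SMG5 in control nuclei and 25.0% ± 0.18 (n = 3) in RNAi nuclei, against 0.7% in control cytoplasm and 0.39% ± 0.21 (n = 2) in RNAi cytoplasm. For SMG9 the shares were 32.4% ± 2.7 and 37.7% ± 1.3 in control and RNAi nuclei, 4.72% in control cytoplasm and 12.0% ± 12.9 in RNAi cytoplasm, where the libraries gave 2.86% and 21.1%. For UPF1 they were 7.99% ± 1.7 and 13.1% ± 2.7 in nuclei, without overlap between the arms, and 2.03% and 3.0% ± 3.9 in the cytoplasm. For SMG1 the control cytoplasmic share, 32.0%, lay within the range in control nuclei, 31.9% to 36.3%. It was 21.0% ± 1.8 in RNAi cytoplasm and 40.9% ± 2.5 in RNAi nuclei. Of estimated counts rather than TPM, the SMG1 share in control cytoplasm was 9.22%, below the control nuclear range of 14.2% to 23.5%. Short transcripts weigh heavily on this scale, and of estimated counts rather than TPM the control nuclear shares were 5.12% for SMG5, 11.57% for SMG9, 5.41% for UPF1 and 17.9% for SMG1. Transcripts annotated as NMD substrates made up at most 2.01% of any member's TPM in any library, and those of SMG1 were listed at 0 in all nuclear libraries.

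**Figure D4:**
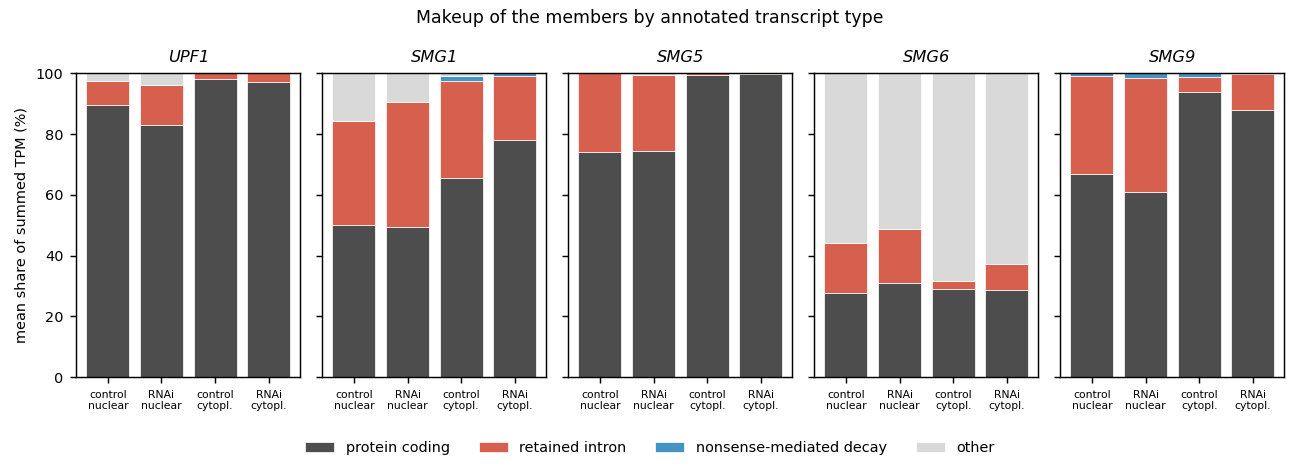
Mean share of each gene's summed TPM, in percent, by annotated transcript type for 5 members in the 4 groups (n = 3, 3, 1 and 2 libraries from left to right). The retained-intron part of SMG5 is 25.96% and 25.0% in nuclei and under 1% in the cytoplasm, and the NMD class is barely visible in any bar.

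Between RNAi and control nuclei, 0 of 25 member transcripts were called by limma relative to their gene, and 0 had an unadjusted p under 0.05, where 1.14% of all transcripts were called, 0.674% higher and 0.47% lower. The lowest unadjusted p was 0.0522, for UPF1-207, a protein-coding transcript (adjusted p = 0.531). No other tool was run on transcripts.

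Patterns over the libraries were compared next. On log2 CPM over the 9 libraries, UPF2 and UPF3B had a Pearson r of 0.975 with each other, the highest between any members, and UPF1 and UPF3B had one of -0.787. SMG1 and SMG6 had the lowest, -0.885. Among all genes tested, the nearest in pattern were CLN6 to UPF1 (0.977), ZNF614 to UPF2 (0.976), THUMPD3 to UPF3A (0.949), ARL14EP to UPF3B (0.978), SMC6 to SMG1 (0.992), BDH1 to SMG5 (0.94), BCKDHA to SMG6 (0.983), ALKBH2 to SMG8 (0.979) and AUP1 to SMG9 (0.994). These values are descriptions over libraries that fall into 4 groups and share their depth.

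Among features that the choice of genes did not use, the length of the canonical transcript in the annotation ranged from 2343 nucleotides for UPF3B to 16062 for SMG1, which was at the 99.5 percentile of 13318 protein-coding genes (median 3370). SMG8 had 4 exons and SMG1 had 63. The last exon, in which m6A is often found, was of 426 nucleotides in SMG8 and of 4787 in SMG1 (median over all genes 1671). The letters GGACT, the commonest form of the m6A consensus, searched on the transcript strand alone, occurred in all 9 members, 1 to 12 times each, and in 91.7% of all protein-coding genes. Per kilobase the median was 0.968 over the members and 0.935 over all genes, and UPF2 and UPF3B had 0.968 and 0.854, beside 1.32 for UPF1 and 1.75 for SMG5.

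Other factors of NMD and of the exon junction complex were taken from a list of their own. Of 26 such genes 25 were tested, and the ratio rose for 5 and fell for 1, where 10.4% of all genes rose and 7.87% fell, with a median change of 0.09 on the log2 scale beside -0.05 over all genes. The exonuclease gene XRN1 was at 13.0 CPM in control cytoplasm and 2.62 and 4.83 CPM in RNAi cytoplasm, with 5.18 to 9.27 CPM in control and 10.1 to 10.4 CPM in RNAi nuclei, and its ratio rose by 2.29 (SE 0.42, edgeR adjusted p = 0.00976). ICE1 rose by 1.81 (SE 0.34), from a cytoplasmic level of 38.0 CPM in control cells to 14.8 and 15.2 CPM after RNAi. EIF4A3, the helicase of the exon junction core, rose by 1.19 (SE 0.29), with 15.3 CPM in control cytoplasm and 7.01 and 7.43 CPM after RNAi. The gene for the decapping enzyme DCP2 rose by 1.05 (SE 0.36), from 30.7 CPM to 13.2 and 14.2 CPM in the cytoplasm, and NCBP1, a subunit of the nuclear cap-binding complex, by 0.57 (SE 0.17), from 76.9 CPM to 43.95 and 50.6 CPM. RUVBL2, an ATPase, fell by 0.82 (SE 0.23), with 78.1 CPM in control cytoplasm and 111 and 124 CPM after RNAi.

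Transcripts known as natural substrates of NMD were counted as well. Of 11 genes 10 were tested, and in the ratio 0 rose and 1 fell, where 10.4% of all genes rose and 7.87% fell, with a median of -0.45 beside -0.05 over all genes. The gene that fell was TBL2, by 0.58 (SE 0.19, edgeR adjusted p = 0.0804), which was at 15.03 CPM in control cytoplasm and 24.0 and 26.9 CPM after RNAi. In nuclei after RNAi 0 of 10 were called by edgeR, where 4.89% of all genes were, and in the cytoplasm 1 rose, again TBL2, and 0 fell, where 10.4% of all genes rose and 14.2% fell. Between the fractions 6 of 10 were higher and 1 lower in nuclei, where 33.1% of all genes were higher and 23.4% lower.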

How the data were processed

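Nuclear and cytoplasmic RNA of 9 libraries was analysed, with siRNA, fraction and replicate number taken from the labels. According to the methods and the submitters' processing notes, the authors trimmed reads with cutadapt, merged lanes and ran salmon against Ensembl transcripts of hg19 (v75 of the annotation is named in the methods, and the version of salmon is not given in the sources used here). The deposited estimated counts per transcript are not normalized, and the deposited TPM values were corrected by the authors' salmon run for effective length and scaled to the same total in each library. Salmon divides reads shared between transcripts, so isoform values, and those of genes with near-identical copies, are estimates.

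Transcripts were matched to GENCODE version 44 on GRCh37 (183122 of 215170, or 85.1%, carrying 83.07% to 88.31% of the counts of a library). Of the 90 member transcripts 78 had the same length in the files and in that annotation. Counts were summed per gene, rounded and tested in edgeR 4.0.16 (R 4.3.3) by the quasi-likelihood test with TMM, 4 groups, no replicate block, and genes with at least 10 counts in at least 3 libraries, with Benjamini-Hochberg adjustment over 16181 genes. The residual degrees of freedom were 5. An SE is the log2 fold change divided by the square root of F. Transcripts with at least 1 TPM in at least 3 libraries were tested with diffSplice of limma 3.58.1 on log2(TPM + 1). Code was tested on simulated data. Alternatives were DESeq2 1.42.0 (size factors and Wald test), library size only, no filter, a transcript length offset, limma on gene TPM, an FDR of 0.05, a replicate block, other pseudocounts and filters for transcripts, and omission of each library but the control cytoplasmic one. The RNAi arm alone was added after the data were seen. Counts of 3, given as a floor, cover counting error only.

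The 9 members and the lists of other genes were chosen with earlier results of these data known. The genes named are the members in every library, their transcripts that lead in mean TPM or pass the transcript test, the gene and the member nearest in pattern to each, listed genes past the thresholds in the ratio, the SMG1 copies, the siRNA targets and the fraction markers. Transcripts that match no gene were left out of the sums, and the amino acid sequences of the members were not used here. A result that concerns an item withheld for evaluation is not reported here.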

Additional observations from a re-analysis of the deposited data

Results flagged for a closer look

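The nuclear/cytoplasmic difference of 13 genes differed between the RNAi and control arms by the interaction contrast in edgeR. All of them rest on the single control cytoplasmic library. They came from the 9 members, 25 other decay and exon junction genes, 10 natural substrates and 2 siRNA targets tested. Marker genes were not counted among them. Of all 16181 genes tested, 18.2% were called in this contrast. Among the members the changes on the log2 scale were 2.343 for UPF2, 1.877 for UPF3B and 1.807 for SMG1, and -0.507 for UPF1 and -0.576 for SMG9. Of the other decay and exon junction genes the changes were 2.287 for XRN1, 1.806 for ICE1, 1.188 for EIF4A3, 1.048 for DCP2, 0.572 for NCBP1 and -0.817 for RUVBL2. TBL2, a natural substrate of the pathway, changed by -0.577, and the siRNA target WTAP by 0.892. On the CPM scale UPF2, UPF3B, XRN1, ICE1, EIF4A3, DCP2, NCBP1 and WTAP were higher in the control cytoplasmic library than in any other library, and UPF1, SMG9 and TBL2 were lower there than in any other.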

How the results depend on the processing

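Of 784 values of single genes and transcripts under an alternative, 669 kept their direction and side of the thresholds, 72 lost a call, 24 gained one and 19 changed sign. Called members in the ratio (5) numbered 3 with library size only, with no filter, with the length offset and at an FDR of 0.05, and 2 with limma on TPM. Of all genes 1782 were called with the length offset, 1074 with limma and 1899 at an FDR of 0.05, against 2953. In nuclei 0 members were called with the length offset or limma, and of all genes 490 with library size only (67.8% higher, against 50.5%), 1305 with no filter, 442 with the length offset, 174 with limma and 390 at an FDR of 0.05, against 792. In the cytoplasm limma called 2 members and 1495 genes, and library size only called 431 genes higher and 3200 lower (11.9% higher, against 42.1%). Between the fractions 3 members were called with library size only (67.7% higher over all genes, against 58.6%) or limma, 2 with the length offset and 4 in the RNAi arm alone. Member transcripts called between fractions numbered 5 of 8 tested with at least 5 TPM and 9 of 25 in the RNAi arm alone, against 14 of 25. In nuclei 1 of 56 tested was called with at least 0.1 TPM. Shares of retained-intron transcripts in estimated counts were 5.41% for UPF1, 17.93% for SMG1, 5.12% for SMG5 and 11.57% for SMG9. The cause of these differences was not tested.

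Leaving out each library but the control cytoplasmic one gave 2 to 6 members and 1920 to 3439 genes in the ratio, 0 to 1 members and 52 to 1071 genes in nuclei, 5 to 7 members and 2816 to 4480 genes in the cytoplasm, 1 to 3 members and 8659 to 9142 genes between fractions, and 11 to 14 and 0 to 0 member transcripts between fractions and in nuclei. In the ratio 2 members were called without control nuclear replicate 3 (1920 genes), RNAi nuclear replicate 1 or RNAi nuclear replicate 3 (1954 genes), and 3 without RNAi cytoplasmic replicate 2. In nuclei 88 genes were called without control nuclear replicate 3, and 256, 106 and 52 without RNAi nuclear replicate 1, 2 and 3, and no member was called in these fits except without RNAi nuclear replicate 1. Between fractions 3 members were called without RNAi cytoplasmic replicate 2. Values that changed sign were, in the ratio, SMG5 (-0.178 to 0.284 over these fits) and SMG8 (-0.054 to 0.184, and -0.039 with the length offset), in nuclei UPF3A (-0.196 to 0.163, 0.099 with the length offset and 0.157 with limma), SMG6 (-0.079 to 0.274, and -0.041 with the length offset) and SMG9 (0.016 with limma), and in the cytoplasm SMG5 (-0.152 to 0.316, -0.146 with library size only and -0.174 with limma). SMG6 between fractions, -0.38, was 0.11 with the length offset and 0.341 with limma.

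Deviations of same-numbered nuclear libraries correlated by 0.185, 0.11 and 0.042, beside -0.172 to 0.056 for different numbers. RNAi nuclear 3 correlated better with control nuclear 2 (0.056) than with its own number. The replicate numbers were not taken to pair the libraries. Whether nuclear and cytoplasmic libraries of one number deviate together was not checked. With the replicate block 5, 1, 7 and 1 members and 4038, 1034, 4719 and 8948 genes were called in the ratio, nuclei, cytoplasm and between fractions, and 12 and 0 member transcripts between fractions and in nuclei. SMG5 and SMG8 then had ratio changes of -0.147 and -0.022. Depth limits UPF2, UPF3A and UPF3B most, with as few as 23, 35 and 25 estimated counts in a library.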

Other observations

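Copies were looked up for SMG1 alone, and genes overlapping in position for all members. The largest of the 9 SMG1 copy genes, an entry of SMG1P7 (ENSG00000291263), had 6 to 147 estimated counts per library, and 5 of the 9 passed the filter on low counts. The non-coding genes on the strand opposite to SMG1 and SMG6 shared 171 and 191 exon nucleotides with them and had at most 4 and 0 counts, and a coding gene on the strand of SMG8 shared 422 nucleotides and had at most 5 counts.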
